A study of Mus musculus with 3 samples.

Results

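Islet endothelial cells were described in a mouse islet preparation taken 5 weeks after inactivation of *Taf4* in beta cells. In single-cell RNA-seq of 3′ tags each cell barcode carries unique molecular identifiers (UMIs), each standing for 1 captured transcript. Endothelial barcodes were those with at least 3 UMIs in total of 7 genes, *Pecam1*, *Plvap*, *Cdh5*, *Esm1*, *Flt1*, *Kdr* and *Emcn*, and with *Ins2* under 35%, *Gcg* under 15% and *Sst* under 5% of their UMIs. The rule selected 229 of the 11229 barcodes of the library, a share of 2.04% with an exact binomial 95% interval of 1.79 to 2.32%. Because the members were chosen on their own counts, every comparison with the remaining 11000 barcodes is a description, and no test was made. The design holds 1 library per condition, so all intervals are exact 95% intervals that cover counting error only.

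The study asked what loss of Taf4, a subunit of the general transcription factor TFIID, does to islet cells. Live sorted islet cells of C57/Bl6 mice were captured with the 10X Genomics Chromium system in 3 libraries, each from 300 islets. The wild-type library came from 1 mouse, and the TAF4 KO libraries at 1 week and at 5 weeks after inactivation each pooled 2 mice, so that values of single animals cannot be told apart. Adult mutant mice carried floxed *Taf4* alleles and an *Ins1*::Cre-ERT2 transgene and had received tamoxifen on consecutive days, while the study's control mice carried the same Cre with intact *Taf4* and also received tamoxifen. The insulin promoter directs this Cre to beta cells, so the endothelial cells described here come from mutant islets but were not the cells targeted.

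Islet capillaries are dense and fenestrated, and endocrine cells attract and maintain them by secreting vascular endothelial growth factor A, which endothelial cells sense through the receptors encoded by *Kdr* and *Flt1*. In return the endothelium lays down the vascular basement membrane on which beta cells sit, since beta cells make little of it themselves. *Plvap* encodes the protein of the diaphragms that span the fenestrae, and *Pecam1* and *Cdh5* encode adhesion molecules of endothelial junctions.

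Some facts of the libraries bear on the results. The 3 libraries held 19472212, 23131247 and 39408284 UMIs in 12000, 2295 and 11229 barcodes, with median depths of 1396, 2759 and 2467 UMIs for wild type, 1 week and 5 weeks. Although the labels call all mice male, the wild-type library held 17357 UMIs of *Xist*, the RNA of X inactivation, and 0 of the Y-linked *Ddx3y*, against 11 and 1349 at 5 weeks, so the library labelled wild type goes against its label in this respect. The 5-week library shared 33 barcode sequences with wild type and 5 with 1 week, and 1 of these was an endothelial barcode. *Taf4* gave 102, 196 and 160 UMIs in the 3 libraries, or 5.24, 8.47 and 4.06 UMIs per 1000000 UMIs of the library (CPM), and 3′ tags do not show whether the floxed part was deleted. The endothelial barcodes held 5 *Taf4* UMIs.

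The same rule found 0 endothelial barcodes in the wild-type library, for which 3 counts, the limit that a count of 0 allows, give a share of up to 0.025%, and 2 of 2295 at 1 week (0.0871%, 0.0106 to 0.314%). Summed over whole libraries, the 7 genes gave 55 UMIs in wild type, 155 at 1 week and 5166 at 5 weeks, or 2.82 (2.13 to 3.68), 6.70 (5.69 to 7.84) and 131 (128 to 135) CPM of all UMIs. *Plvap* was counted 6, 26 and 998 times, *Kdr* 4, 39 and 760 times and *Flt1* 7, 21 and 1055 times in the 3 libraries. The RNA of the 7 genes was thus mostly in the 5-week library. The 28 further endothelial genes of a list described next gave 353, 824 and 5613 UMIs, or 18.1 (16.3 to 20.1), 35.6 (33.2 to 38.1) and 142 (139 to 146) CPM of all UMIs, and differed less between the libraries. The 1-week table had no row for *Cdh5* and *Esm1*, and its 2 endothelial barcodes held 715 and 23962 UMIs. The deeper barcode held 118 of the 155 rule-gene UMIs at 1 week, with 37 of *Kdr*, 20 of *Plvap* and 17 of *Flt1*. It also held 201 of the 824 UMIs of the further genes. The 1-week level of the 7 genes thus rests mostly on 1 barcode, a spread that its counting interval does not cover. The study had removed doublets and cells with several hormones from the wild-type library only and scaled it to 12000 cells, and cell yield, animal, genotype and library cannot be told apart, so the counts were not compared further. In these summed levels fewer cells of a type and less RNA per cell cannot be told apart either.

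Within the 5-week library the rule fell into a gap of the distribution. Of the 908 barcodes below the hormone limits, 670 held 0 UMIs of the 7 genes, 6 held 1 and 3 held 2. Just inside the threshold, 2 barcodes held 3 and 6 held 4, whereas 193 of the 229 members (84.3%) held 10 or more. Few barcodes lay near the threshold on either side. The 3 barcodes with 2 UMIs still held between 4 and 11 UMIs of the other endothelial genes, and the 2 barcodes with 3 UMIs held 2 and 7. Members held a median of 18 UMIs of the 7 genes, between 3 and 56, and a median of 6 of the 7 genes, and 76 members held all 7. A further 33 barcodes with 3 or more of these UMIs lay over a hormone limit, 18 for *Ins2*, 7 for *Gcg* and 8 for *Sst*, and their median depth of 3707 UMIs exceeded the median of 1238 UMIs in the members.

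**Figure D1:**
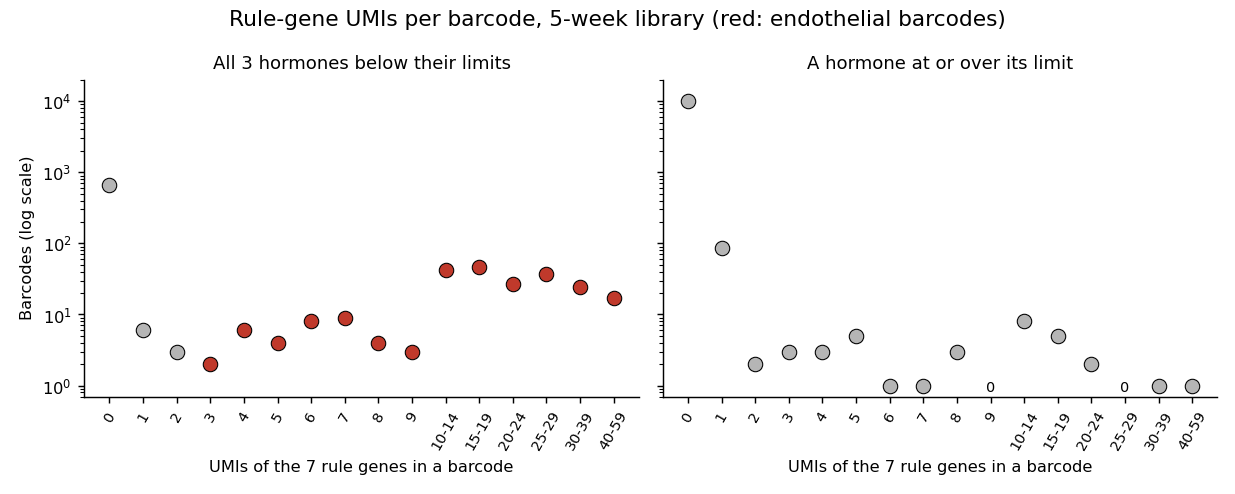
Number of barcodes of the 5-week library (vertical axis, log scale) by the UMIs of the 7 rule genes in the barcode (horizontal axis), for barcodes with all 3 hormones below their limits (left) and with a hormone at or over its limit (right). Endothelial barcodes are red; the 9 barcodes with 1 or 2 UMIs on the left separate them from 670 barcodes at 0, and 33 barcodes on the right lie at 3 or more.

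The label was checked against markers. Of 28 pan-endothelial genes outside the rule, 26 were higher in the endothelial barcodes than in the rest and 2, *Cldn5* and *Vwf*, had no row in the table. A gene was called higher or lower where its level differed at least by a log2 ratio of 1 or -1 with an interval that excluded 0, among 11967 genes with at least 30 UMIs in the library. From here levels are CPM after the 7 hormone genes *Ins1*, *Ins2*, *Gcg*, *Sst*, *Ppy*, *Pyy* and *Iapp* were left out of the total, unless CPM of all UMIs is named. By this rule 13.6% of all tested genes were higher and 16.9% were lower, and since the selection favours endothelial genes the count supports nothing further. Of the tested genes 241 had under 30 UMIs in the remaining barcodes and reached that number only with the UMIs of the members, and 224 of them were higher, which the filter favours. Among the pan-endothelial genes these were 15. In lists described below they were 6 of the endothelial transcription factors, 5 tip cell genes and 4 genes each of the capillary and secreted factor lists. The angiopoietin and BMP lists held 3 each, and other lists held some as well. Counts of higher genes in every list are to be read beside this filter and the 13.6% of all tested genes. Every member held at least 2 pan-endothelial UMIs, with a median of 17 and a maximum of 46.

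Markers of other cell types were then counted over the members. The 4 of 12 T or B cell genes with a row were at 0, as were *Lyve1* and *Pdpn* of lymphatic endothelium and *Adgre1* and *Csf1r* of macrophages. Other genes of the lymphatic and macrophage lists were present. Lymphatic *Flt4* had 43 UMIs in 39 members and was higher, whereas *Prox1* had 2 UMIs and was lower. Macrophage genes *Cd14* (21 UMIs in 18 members) and *Fcer1g* (14 UMIs in 9 members) were higher, 1 was not called and 9 had under 30 UMIs. The 12 macrophage genes gave 68 UMIs, of which 52.9% lay in 2 barcodes, and the 4 genes of MHC class II gave 71 UMIs, of which 88.7% lay in 2 barcodes. Haemoglobin genes, which mark red blood cells, gave 855 UMIs, and 99.6% of them lay in 2 barcodes. Reads of *Hba-a1* and *Hba-a2*, which are near-identical, could be split between them by the counting. Pericyte genes were spread more widely, with 330 UMIs over 63 members and 3 or more in 43 members (18.8%), against 8 of 11000 remaining barcodes. They are described with the variation among members.

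Across all genes, 1622 were higher and 2019 were lower in the endothelial barcodes. Among the former, 403 genes (3.37% of those tested) exceeded a log2 ratio of 4 and 128 (1.07%) a log2 ratio of 8. The scale matters for the balance, because insulin and glucagon transcripts fill most UMIs of endocrine cells. In CPM of all UMIs each log2 ratio is larger by 1.22, 3718 genes (31.1%) were higher and 327 (2.73%) lower, and the share of higher genes among those called was 91.9% in place of 44.5%. Centred on the median of the tested genes it was 51.2%. The median log2 ratio of all tested genes was -0.14 on the scale used here. List medians are given without subtracting it and are to be read beside it.

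**Figure D2:**
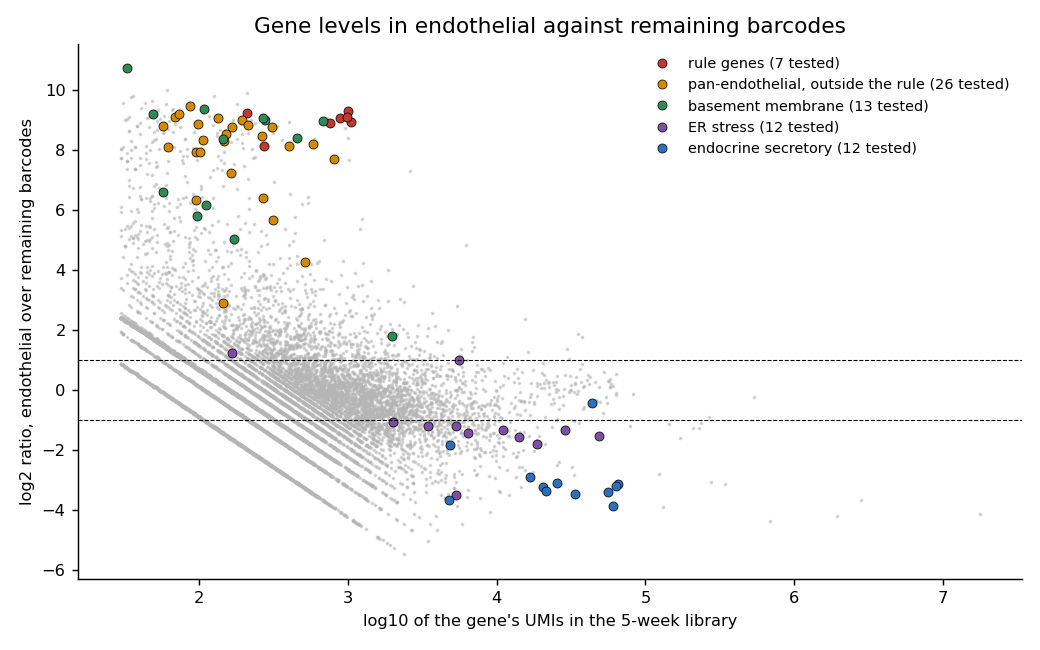
Log2 ratio of each of 11967 tested genes between endothelial and remaining barcodes (vertical axis) against log10 of the gene's UMIs in the library (horizontal axis). Dashed lines mark log2 ratios of 1 and -1; genes at 0 UMIs on one side are drawn at the bound that 3 UMIs give. Rule genes, pan-endothelial and basement membrane genes lie at the top, and ER stress and endocrine secretory genes lie mostly below 0.

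The 7 rule genes define the members and are given as a description. *Flt1*, a VEGF receptor on chromosome 5 (147561604 to 147726438, GRCm38.p6), had 952 UMIs in 212 members, 3290 CPM against 6.71 CPM in the rest. *Plvap*, on chromosome 8 (71497753 to 71511806), had 921 UMIs in 215 members, 3183 against 5.01 CPM. *Esm1*, a secreted proteoglycan of endothelium on chromosome 13 (113209659 to 113218104), had 901 UMIs in 205 members, 3114 against 5.60 CPM. These and the sialomucin gene *Emcn* (805 UMIs, 207 members) and the VEGF receptor gene *Kdr* (685 UMIs, 201 members) were found in most members. *Pecam1* (229 UMIs) and *Cdh5* (192 UMIs) were found in 136 and 134 members. Members held between 84.2% (*Pecam1*) and 92.3% (*Plvap*) of the library's UMIs of each rule gene.

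The pan-endothelial genes outside the rule had a median log2 ratio of 8.33, with 14443 CPM in the members against 93.4 CPM in the rest for their sum. *Egfl7*, which encodes a secreted factor of endothelial cells, had 642 UMIs in 201 members and 165 UMIs in the rest, a log2 ratio of 7.69 (7.44 to 7.95). *Tm4sf1*, a tetraspanin-like membrane protein gene, had 491 UMIs in 173 members, and *Eng*, the co-receptor for BMP9, had 230 UMIs in 136 members. *Ptprb*, the vascular endothelial phosphatase, and *Podxl*, a sialomucin of the luminal surface, had log2 ratios of 8.78 (8.26 to 9.35) and 8.84 (8.20 to 9.55). The list ranged from 2.91 (2.11 to 3.63) for *Nos3*, the endothelial nitric oxide synthase with 18 UMIs in the members and 127 in the rest, to 9.48 (8.30 to 10.97) for *Calcrl*, the receptor for adrenomedullin and CGRP. *Nos3* was thus less concentrated than the rest of the list, with 12.4% of its UMIs in the members.

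Promoters of these genes are shown because their transcripts were concentrated in the same barcodes, and ETS factors, whose sites share a GGAA core, are known regulators of endothelial genes. The letters CAGGAAG were searched on both strands in the 300-base promoter windows of the RefSeq table (GRCm38.p6), in which 19 of the 33 rule and pan-endothelial genes with a row were matched. Of the 19, 7 (36.8%) held a match in any of their windows. The share was 14.8% for the 27025 genes of the table and 14.8% for the 11800 matched genes of the 5-week table. Numbers of windows per gene were not equalized. The letters ACAATG or ACAAAG of SOX factors were found in 4 (21.1%), against 31.7% and 23.8%. Both windows below lie on the plus strand, capitals mark the ETS letters or their reverse complement, and no SOX match overlaps them. In *Emcn* the match begins at -174 from the start and in *Egfl7* matches begin at -90 and -49. Another *Egfl7* window, not shown, holds a match that begins at -81.

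Emcn, chr3:137340828-137341127: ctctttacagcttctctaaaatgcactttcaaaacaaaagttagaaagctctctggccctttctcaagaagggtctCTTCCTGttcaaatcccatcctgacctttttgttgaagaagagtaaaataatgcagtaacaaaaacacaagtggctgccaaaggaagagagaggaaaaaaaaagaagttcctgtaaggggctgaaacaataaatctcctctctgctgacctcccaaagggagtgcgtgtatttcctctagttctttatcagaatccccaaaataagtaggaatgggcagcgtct
Egfl7, chr2:26580833-26581132: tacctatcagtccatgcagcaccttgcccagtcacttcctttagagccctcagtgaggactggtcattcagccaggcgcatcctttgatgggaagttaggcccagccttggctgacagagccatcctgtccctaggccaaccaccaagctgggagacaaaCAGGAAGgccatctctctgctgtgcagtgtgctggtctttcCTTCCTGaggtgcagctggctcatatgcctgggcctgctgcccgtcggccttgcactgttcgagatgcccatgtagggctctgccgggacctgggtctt

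A match is a description of letters and not of binding. The genes with a match were *Emcn*, *Egfl7*, *Adgrf5*, *Cd34*, *Calcrl*, *Rasip1* and *Robo4*, of which *Cd34*, *Rasip1* and *Robo4* are named only for this count.

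Of 10 VEGF genes 6 were higher in the endothelial barcodes and 3 lower. The 6 were the receptors and co-receptors *Flt1*, *Kdr*, *Flt4*, *Nrp1* and *Nrp2* and the ligand *Vegfc*, and the 3 were the ligands *Vegfa*, *Vegfb* and *Pgf*. *Flt1* and *Kdr* are rule genes, whose high level the choice of members fixes. *Vegfa* had 14 UMIs in 12 members, 48.4 CPM (26.5 to 81.2), against 222 CPM (213 to 231) in barcodes with *Ins2* at 35% or more, 151 CPM (138 to 165) in those with *Gcg* at 15% or more and 206 CPM (182 to 233) in those with *Sst* at 5% or more. *Kdr* had 2367 CPM (2193 to 2552) in the members against 4.56, 4.96 and 8.82 CPM in the 3 hormone gates. *Flt1* had 3290 CPM in the members against 7.05, 5.25 and 13.6 CPM. Of the 481 rule-gene UMIs of all remaining barcodes, 379 lay in 33 barcodes, so gate levels of rule genes are not levels of typical endocrine cells. *Nrp1*, a co-receptor, had 1168 CPM against 2.18, 7.88 and 9.62 CPM. The rule did not use *Vegfa* and *Nrp1*. Their gate levels are given on the scale without the hormone genes only, and were not compared in CPM of all UMIs. *Nrp2* had 58 UMIs in 44 members. *Flt4*, the receptor for VEGF-C, had 43 UMIs in 39 members and 0 in the rest, at least 761-fold higher on the count of 3 UMIs that a 0 allows. *Vegfc* was called higher on few counts, 4 UMIs in 3 members and 48 in the rest. The log2 ratios of *Vegfa* and *Vegfb* were -2.06 (-2.94 to -1.31) and -2.45 (-4.73 to -0.89), and in CPM of all UMIs neither they nor *Pgf*, named after its values were seen, were called.

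**Figure D3:**
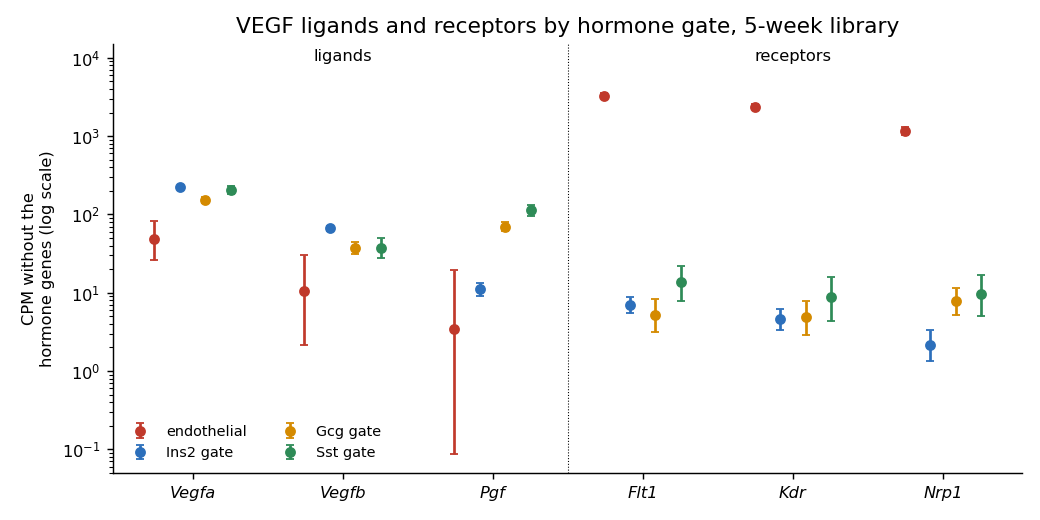
CPM without the hormone genes (vertical axis, log scale) of 3 VEGF ligands and 3 receptors in endothelial barcodes and in barcodes of the *Ins2*, *Gcg* and *Sst* gates. Bars are exact Poisson 95% intervals. The ligand *Vegfa* is at 48.4 CPM in endothelial barcodes and at 151 to 222 CPM in the gates, whereas *Kdr* is at 2367 CPM against 4.56 to 8.82 CPM.

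Angiopoietin signalling sets the stability of capillaries through the receptor Tek. *Tek* had 51 UMIs in 43 members and *Tie1* 63 UMIs in 54 members, with log2 ratios of 8.82 (7.60 to 10.3) and 9.12 (7.92 to 10.6). The antagonistic ligand *Angpt2* was counted 30 times in 27 members and 18 times in the rest. The agonist *Angpt1*, a product of pericytes, was at 0 in the members and at 1 in the rest.

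Of 12 genes of sprouting tip cells, 8 were higher, *Pgf* was lower and 3 had under 30 UMIs, with a median of 6.47. The filter favoured 5 of the tested genes, which reached 30 UMIs only with those of the members. *Esm1*, itself a tip cell gene, was found in 205 members, but it is a rule gene, whose high level the choice of members fixes. Of genes outside the rule, *Dll4*, the Notch ligand of tip and arterial cells, was found in 66 (28.8%, 23.0 to 35.2%). *Plaur*, the urokinase receptor, was found in 46 (20.1%, 15.1 to 25.9%) and *Angpt2* in 27 (11.8%, 7.92 to 16.7%). *Cxcr4*, a chemokine receptor, was found in 15 members. The tip genes other than *Esm1* were therefore seen in a minority of members, and at a median of 1238 UMIs per barcode a transcript can be missed in cells that express it.

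Arterial and venous genes were compared in the same way. Of 16 genes of the Notch and arterial list 8 were higher, 6 had under 30 UMIs and 2 had no row. The 8 had a median of 6.19, and 3 of them, *Gja4*, *Sox17* and *Jag2*, reached 30 UMIs only with those of the members. *Hes1*, a Notch target, had 99 UMIs in 68 members, *Notch1* 77 UMIs in 61 members and *Efnb2*, the arterial ephrin, 65 UMIs in 50 members (21.8%, 16.7 to 27.8%). *Sox17* and the connexin gene *Gja4* were each found in 23 members (10.0%, 6.47 to 14.7%). Of the 8 venous genes 4 had no row and the other 4 had under 30 UMIs. *Ephb4*, the receptor of venous endothelium, was counted 20 times in 20 members, *Nr2f2* 8 times in 8 members, and *Aplnr* and *Vcam1* 2 times and 1 time. *Prox1*, the lymphatic factor that endocrine cells also express, had 2 UMIs in the members, a log2 ratio of -3.15 (-6.19 to -1.29). Summed over the members, the Notch and arterial list gave 462 UMIs and the venous list 31 UMIs, over the 14 and 4 genes with a row. The former sum includes 99 UMIs of *Hes1*, 77 of *Notch1* and 77 of *Dll4*, which is also on the tip cell list. The genes are of unequal abundance, so the sums do not measure arterial against venous identity.

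Genes of capillaries and of fatty acid uptake were higher in 11 of 15 cases, with a median of 7.58. *Gpihbp1*, which carries lipoprotein lipase to the capillary lumen, had 198 UMIs in 105 members and 11 in the rest, a log2 ratio of 9.90 (9.03 to 10.9). The lipase gene itself, *Lpl*, had 6 UMIs in 5 members and was lower, at -2.41 (-3.86 to -1.29), and its level was 43.3, 331 and 13.6 CPM in the *Ins2*, *Gcg* and *Sst* gates against 20.7 CPM in the members. *Lpl* was named after its values were seen. *Fabp4*, a fatty acid carrier, had 361 UMIs in 117 members, and *Cd300lg*, a receptor of capillary endothelium, 169 UMIs in 108 members. The IGF-binding protein gene *Igfbp3* had 664 UMIs in 168 members at 9.08 (8.71 to 9.47). *Igfbp7* had the most UMIs of the list, 2159 in 224 members, and it was also found in endocrine cells, at 99.3 CPM in the *Ins2* gate, 541 CPM in the *Gcg* gate and 607 CPM in the *Sst* gate against 7462 CPM in the members.

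Of 18 genes of the basement membrane list 13 were higher and 5 had under 30 UMIs. The 13 had a median of 8.40 against -0.14 for all genes, and 7 of them reached 30 UMIs only with those of the members. *Col4a1* and *Col4a2*, the chains of collagen IV, had 395 UMIs in 162 members and 245 UMIs in 136 members, and members held 86.4% and 91.1% of the library's UMIs of these genes. *Sparc* and *Sparcl1*, matricellular proteins, had 614 and 252 UMIs, with log2 ratios of 8.97 (8.60 to 9.36) and 9.01 (8.42 to 9.65). Laminin and perlecan genes had fewer UMIs, 65 for *Lamc1* and 125 for *Hspg2*. The collagen chaperone gene *Serpinh1*, which other cells of the library also express, was at 1.79 (1.51 to 2.05). *Col15a1*, a collagen of capillary basement membranes, was at 9.37 (8.34 to 10.6).

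Of 14 genes of caveolae and junctions, 11 were higher. *Cavin3* and *Cav1*, components of caveolae, had log2 ratios of 7.75 (7.27 to 8.24) and 6.81 (6.20 to 7.46), and the endocytic gene *Ehd4* had 317 UMIs in 163 members. Junction genes shared with epithelia were less concentrated, with *F11r* at 2.35 (1.91 to 2.77) and *Tjp1*, which encodes ZO-1, at 1.76 (1.34 to 2.15). *Gja1*, encoding connexin 43, was among the 20 highest genes at 9.34 (8.04 to 11.01).

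The 20 genes with the highest log2 ratios among those with at least 50 UMIs in the members ran from 9.08 for *Slfn5* to 10.0 for *Hecw2*. *Hecw2*, a ubiquitin ligase, had 58 UMIs in 50 members and 3 in the rest. *Gimap6*, a GTPase gene, had 119 UMIs in 91 members and 7 in the rest, at 9.82 (8.73 to 11.2). The others outside the lists were *Tmem204*, *Sncg*, *Col13a1* and *Fam167b*. Their intervals overlapped widely, and their order was not resolved.

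**Figure D4:**
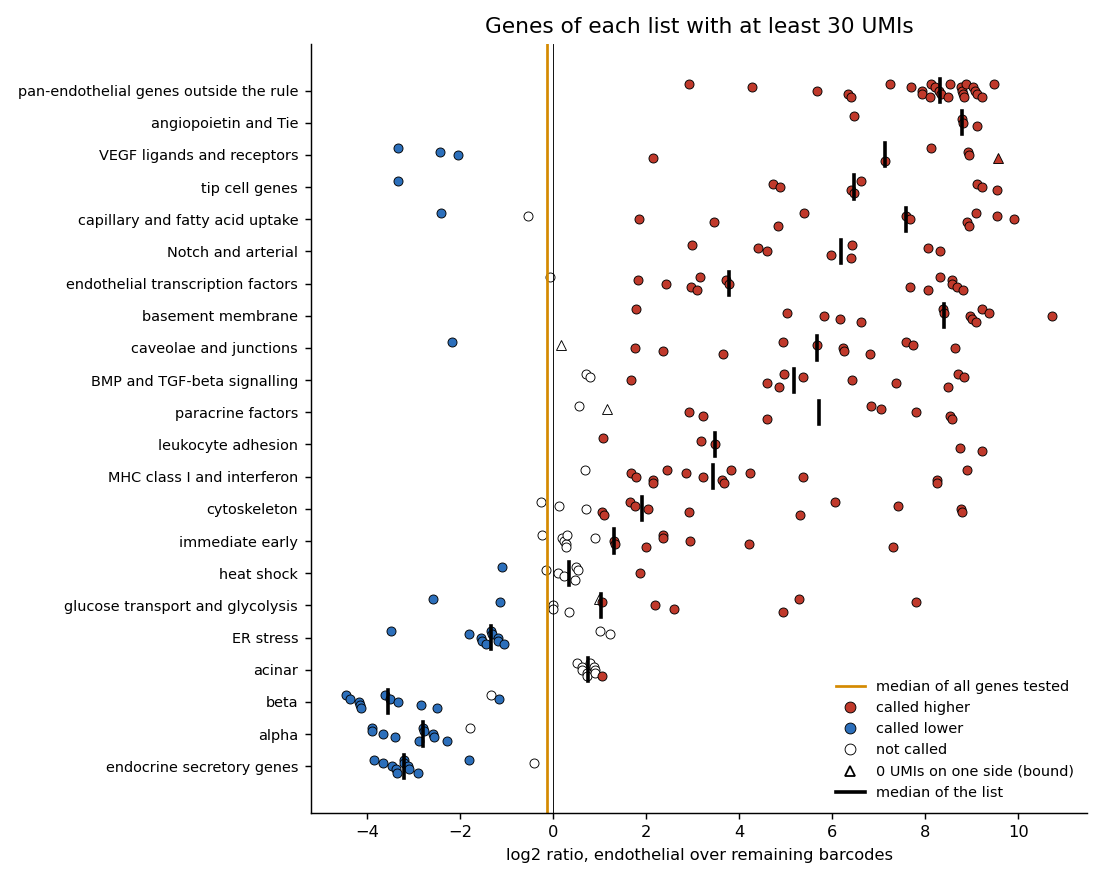
Log2 ratio between endothelial and remaining barcodes (horizontal axis) of each gene with at least 30 UMIs, by gene list (vertical axis). Red points were called higher, blue points lower and white points neither; triangles are bounds for genes at 0 on one side, black bars are list medians and the gold line is the median of all tested genes at -0.14. List medians run from 8.80 for angiopoietin and Tie genes to -3.56 for beta cell genes.

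Endothelial transcription factors were higher in 14 of 19 cases and 4 had under 30 UMIs. *Epas1*, which encodes HIF-2alpha, had 274 UMIs in 141 members at 8.58 (8.09 to 9.11), and *Sox18* and *Sox7* were at 8.69 (7.95 to 9.51) and 8.57 (7.42 to 9.95). *Ets1* had 77 UMIs in 64 members at 7.67 (6.95 to 8.46). The flow-responsive *Klf2* and *Klf4* were less concentrated, at 2.96 (2.76 to 3.16) and 3.09 (2.83 to 3.34), and *Klf2* reached 823 CPM in the members against 57.6, 198 and 156 CPM in the *Ins2*, *Gcg* and *Sst* gates. *Hhex*, also a delta cell factor, was not called.

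Of 14 genes of BMP and TGF-beta signalling 10 were higher, with a median of 5.17. *Acvrl1*, the type I receptor that pairs with endoglin, had 111 UMIs in 86 members at 8.82 (7.99 to 9.78), and the inhibitor *Smad6* was at 8.70 (7.57 to 10.1). *Id1* and *Id3*, targets of BMP signalling, had 333 UMIs in 148 members and 534 UMIs in 181 members, at 6.43 (6.17 to 6.69) and 5.38 (5.21 to 5.54). *Smad7* and *Bmpr2* were at 4.96 and 4.85. Receptors, targets and inhibitors were all among the higher genes.

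Of 15 genes for secreted factors 8 were higher, 5 had under 30 UMIs and 2 were not called. *Thbs1*, thrombospondin 1, had 152 UMIs in 93 members at 7.05 (6.61 to 7.50). *Kitl*, the ligand of KIT, had 115 UMIs in 81 members and 16 in the rest. *Pdgfb*, which recruits pericytes, had 41 UMIs in 37 members, and *Tgfb1* 67 UMIs in 57 members. *Ctgf* and *Cyr61*, related matricellular genes, were at 8.54 (7.18 to 10.2) and 3.22 (2.94 to 3.49), so they differed in how far other cells share them. *Hgf*, which was named after its values were seen, was at 0 in the members and at 72 UMIs in the rest.

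MHC class I and interferon-related genes were higher in 15 of 16 cases, with a median of 3.43. *B2m* had 330 UMIs in 159 members, 1141 CPM against 69.6, 44.7 and 44.1 CPM in the *Ins2*, *Gcg* and *Sst* gates. *Ifitm3* was at 8.26 (7.94 to 8.60), and *Ly6a* and *Ly6c1*, surface markers of mouse endothelium, were at 8.25 (7.85 to 8.67) and 8.89 (8.28 to 9.57). The class I heavy chains differed, with *H2-D1* at 1.77 (1.63 to 1.91) and *H2-K1* at 0.69 (0.49 to 0.88), which was not called on this scale but was called higher in CPM of all UMIs. Of the leukocyte adhesion genes 5 of 10 were higher. *Icam1* had 155 UMIs in 94 members and *Icam2* 67 UMIs in 56 members, whereas *Vcam1* had 1 UMI and the chemokine gene *Ccl2* 7 UMIs in 2 members.

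Counts of early response genes depended on the scale. Of 15 immediate early genes 8 were higher on the scale used here and 14 in CPM of all UMIs. *Ier3*, an early response gene, had 1974 UMIs in 209 members and 661 UMIs in all remaining barcodes, 6822 CPM against 37.4, 44.4 and 87.4 CPM in the *Ins2*, *Gcg* and *Sst* gates. *Junb* had 1363 UMIs in 223 members at 2.36 (2.28 to 2.44). *Fos*, *Jun*, *Jund* and *Egr1* lay between -0.24 and 0.28 and were not called on this scale, while all of them but *Fos* were higher in CPM of all UMIs. *Ier3* thus stood apart from the other immediate early genes on either scale.

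Most heat shock genes were not called. Of 8 genes *Hspb1* was higher at 1.86 (1.80 to 1.92), *Dnajb1* was lower at -1.11 (-1.27 to -0.95) and 6 were not called, whereas in CPM of all UMIs 7 were higher and *Dnajb1* was at 0.11. *Hspb1*, a small heat shock protein, had 7780 CPM in the members, 1053 CPM in the *Ins2* gate, 2456 CPM in the *Gcg* gate and 8273 CPM in the *Sst* gate. *Hspa1a* and *Hspa1b* are near-identical, and their reads could be split between them.

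Genes of endoplasmic reticulum (ER) stress were lower in 10 of 12 cases, with a median of -1.34, but in CPM of all UMIs the median was -0.12, 2 genes were higher and 1 was lower. *Hspa5*, the ER chaperone BiP, had 312 UMIs in 170 members, 1078 CPM against 4123 CPM in the *Ins2* gate, 1136 CPM in the *Gcg* gate and 1435 CPM in the *Sst* gate. *Herpud1* had 346 CPM in the members against 1597, 445 and 524 CPM. *Ddit3*, encoding the stress factor CHOP, had 152 CPM against 536, 198 and 146 CPM. For each of these 3 genes the members lay below the *Ins2* gate. *Atf4* was at 1.00 and just missed the threshold.

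Of 13 genes of glucose transport and glycolysis 6 were higher, 2 lower and 4 not called, and in CPM of all UMIs 9 were higher and 0 lower. *Ldha*, which makes lactate and is held low in beta cells, had 109 UMIs in 80 members and 26 UMIs in the rest, 377 CPM against 0.933, 1.46 and 6.42 CPM in the *Ins2*, *Gcg* and *Sst* gates. *Pkm* was at -1.15 (-1.55 to -0.78), and at 0.07 in CPM of all UMIs. *Aldoa*, *Gapdh* and *Pgk1* lay between -0.01 and 0.33. Among 15 cytoskeletal genes 11 were higher, with *Tmsb4x* at 1.76 (1.69 to 1.82), *Actb* at 1.04 (0.95 to 1.12) and the annexin genes *Anxa2* and *Anxa3* at 8.78 (8.05 to 9.60) and 8.77 (8.04 to 9.59). *Actg1* was at 0.13 and was not called.

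Of 12 proliferation genes 2 were higher, 5 not called and 5 had under 30 UMIs. A UMI of the list was found in 39 members, and its sum was at 194 CPM in the members against 51.1 CPM in the rest. *Pcna*, a gene of DNA replication, had 27 UMIs in 25 members and *Ube2c*, a ubiquitin-conjugating enzyme of mitosis, 7 UMIs in 2 members, and these were the 2 higher genes. *Mki67* was found in 1 of 229 members (0.437%, 0.0111 to 2.41%) and *Top2a*, named after its values were seen, in 1. In 1 member the list reached 3 or more UMIs, with 15. Of 9 TFIID genes 1 was higher, 7 were not called and 1 had under 30 UMIs, a share near the 13.6% of all tested genes. The higher gene was *Taf4b*, with 6 UMIs in the members, at 2.31 (0.82 to 3.52). In CPM of all UMIs 3 were higher, *Taf4b*, *Taf4* and *Taf5*. *Taf4* had 5 UMIs in the members and 155 in the rest, a log2 ratio of 0.78 (-0.87 to 2.03), which was not called. In CPM of all UMIs it was at 1.99 (0.35 to 3.25) and was called higher, so the call rests on the scale and on 5 UMIs.

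Median counts of *Ins1*, *Ins2*, *Gcg* and *Sst* in the members were close to those of cells gated for another hormone. *Ins2* gave a median of 49 UMIs per endothelial barcode, with 25th and 75th percentiles of 42 and 59, against medians of 56 in the *Gcg* gate, 59 in the *Sst* gate and 2376 in the *Ins2* gate. *Gcg* gave a median of 2 UMIs per endothelial barcode, 3 in the *Ins2* gate, 3 in the *Sst* gate and 739 in the *Gcg* gate. The median of *Ins1* was 2 in the members and in the *Gcg* and *Sst* gates, and that of *Sst* was 0 in the members and in the *Ins2* and *Gcg* gates. *Iapp*, *Pyy* and *Ppy* differed, with medians of 4, 0 and 0 UMIs in the members. Their medians were 7, 20 and 2 in the *Gcg* gate and 45, 47 and 21 in the *Sst* gate. Every barcode of the library held at least 5 *Ins2* UMIs. *Ins2* made up 4.14% of the UMIs of a member at the median, between 0.898 and 34.5%, where the hormone limits of the rule cap it. The log2 ratios of *Ins1*, *Ins2* and *Iapp* were -4.37, -4.15 and -4.19 and those of *Gcg*, *Sst*, *Ppy* and *Pyy* -3.66, -3.14, -2.81 and -3.08.

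Most genes of the beta, alpha and secretory lists were lower as well, which the hormone limits of the rule favour. Of 12 beta cell genes 11 were lower, of 11 alpha cell genes 10 and of 12 secretory genes 11, with medians of -3.56, -2.81 and -3.21. In CPM of all UMIs 10, 7 and 10 of them were lower. Delta cell genes differed, with 3 of 8 lower, 5 not called and a median of -0.64. In CPM of all UMIs 3 delta cell genes were lower and 1 was higher, with a median of 0.58. The beta list includes *Ins1*, *Ins2* and *Iapp*, the alpha list *Gcg* and the delta list *Sst*. These counts and medians thus hold hormone genes already given, and the rule itself limits *Ins2*, *Gcg* and *Sst*. *Chga*, chromogranin A, had 101 UMIs in 43 members at -3.39 (-3.69 to -3.11), and *Ttr* had 165 UMIs in 43 members at -3.91 (-4.14 to -3.69). *Pdx1*, a beta and delta cell factor, had 3 UMIs in 2 members, and *Atp1b1* and *Slc2a5* 3 UMIs each. Of 11 acinar enzyme genes 1 was higher and 9 were not called, with a median of 0.75, whereas in CPM of all UMIs 10 were higher, with a median of 1.97. *Ctrb1*, chymotrypsinogen, had 265 UMIs in 123 members, 916 CPM against 417, 795 and 929 CPM in the *Ins2*, *Gcg* and *Sst* gates, and 25.5% of all acinar UMIs of the members lay in 2 barcodes.

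Rule genes were also counted in the hormone gates. The remaining barcodes held 481 rule-gene UMIs, and 379 of these lay in the 33 barcodes over a hormone limit with 3 or more. Of the 33, 17 held 10 or more. Gate levels of rule genes thus came mostly from few barcodes, and whether these hold 2 cells was not tested. A UMI of any of the 7 genes was found in 130 of the remaining 11000 barcodes (1.18%), in 1.10% of the *Ins2* gate, 0.939% of the *Gcg* gate and 2.04% of the *Sst* gate, at median depths of 4123, 1863 and 1173 UMIs. With each barcode thinned to 500 UMIs, *Plvap* was found in 74.2% (68.1 to 79.8%) of members and in 0.071, 0.0626 and 0.302% of the 3 gates, while without thinning the shares were 93.9% and 0.213, 0.313 and 0.755%. *Egfl7*, outside the rule, was found in 64.6% (58.1 to 70.8%) of members and in 0.195, 0.219 and 1.06% of the gates after thinning, and in 87.8% and 0.924, 0.751 and 2.79% before. No barcode was left out by the thinning.

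Members varied among themselves. Their depth ran from 500 to 6789 UMIs, and their median of 727 detected genes exceeded the 676 of the deeper remaining barcodes. The median mitochondrial share was 2.92% in both. *Igfbp7* ran from 0 to 42 UMIs per member with a median of 9, *Ier3* from 0 to 46 with a median of 7, and *Malat1*, a nuclear RNA, from 2 to 132 with a median of 31. In *Fabp4* the tenth of the members with most UMIs of the gene held 48.5% of its UMIs, in *Gpihbp1* 47.5% and in *Plvap* 26.6%. *Fabp4* and *Gpihbp1* were thus more unevenly spread than *Plvap*, and they also had fewer UMIs.

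**Figure D5:**
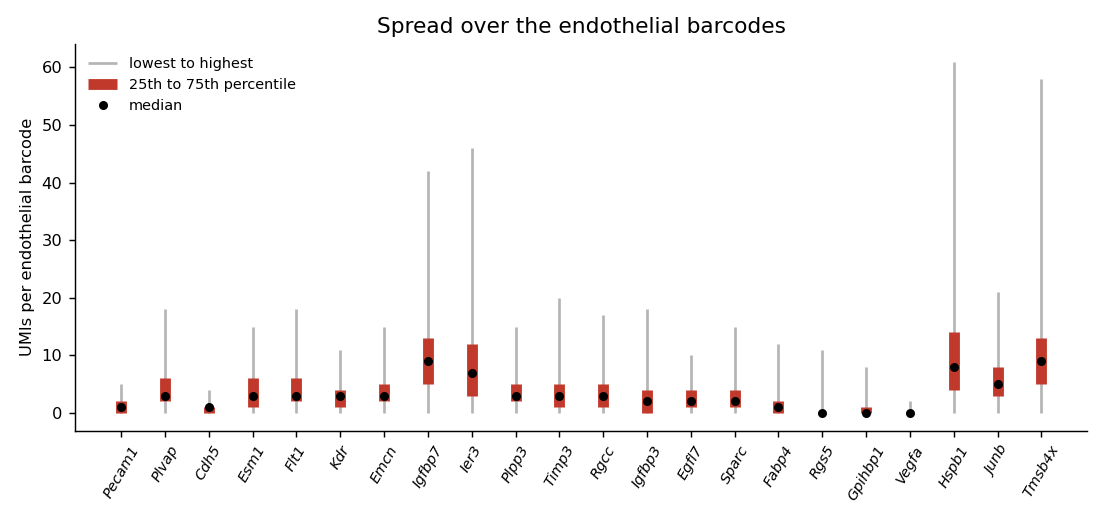
UMIs per endothelial barcode (vertical axis) of 22 genes (horizontal axis) over the 229 members. Grey lines run from the lowest to the highest barcode, red bars from the 25th to the 75th percentile, and points are medians, which are 9 for *Igfbp7* and 0 for *Rgs5*, *Gpihbp1* and *Vegfa*.

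Members with few UMIs of the rule genes were shallower. Those with 3 to 4 (8 barcodes), 5 to 9 (28) and 10 or more (193) held medians of 592, 646 and 1341 UMIs. The pan-endothelial genes outside the rule reached 13873 (10586 to 17857), 10347 (9116 to 11698) and 14840 (14376 to 15316) CPM in these classes. *Egfl7* was at 2543 (1270 to 4551), 1988 (1471 to 2629) and 2235 (2057 to 2424) CPM. The intervals of *Egfl7* overlapped, whereas those of the pan-endothelial sum did not between the middle and the upper class. Of the 29881 UMIs of the middle class, 6789 came from 1 barcode with 17.9% *Ins2* and 8.41% *Gcg*, which clustered apart from the other members. Levels of the class without this barcode were not computed. *Timp3*, an inhibitor of matrix proteases named after its values were seen, was at 1258 (855 to 1786) CPM in the middle class and at 3184 (2971 to 3408) CPM in the upper one. In the lowest class it was at 2312 (1109 to 4252) CPM, an interval that overlapped with both.

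A pericyte signal accompanied some members. The 43 members with 3 or more UMIs of the pericyte list had a median of 1766 UMIs, against 1095 in the other 186. A cut on UMI counts favours deeper barcodes. *Rgs5*, a pericyte marker, had 191 UMIs in 56 members. Of these UMIs 173 lay in the 43, which the cut favours because *Rgs5* is on the pericyte list. *Tagln*, *Acta2* and *Pdgfrb*, genes of mural cells, had 26, 25 and 20 UMIs in all members. The rule genes stood at 12781 (12006 to 13593) CPM in the 43 and at 17481 (16920 to 18056) CPM in the other 186, *Esm1* at 2130 (1821 to 2477) against 3486 (3238 to 3748) CPM and *Sparc* at 2609 (2266 to 2990) against 1938 (1754 to 2136) CPM. *Col4a1* was at 1500 (1243 to 1795) and 1314 (1164 to 1479) CPM, with overlapping intervals. Whether these barcodes hold an endothelial cell and a mural cell together was not tested.

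Clustering gave nearly the same barcodes as the rule. With the 7 rule genes left out of the variable genes, all barcodes of the library fell into 14 clusters, and 228 of 229 members (99.6%) lay in 1 cluster of 263 barcodes. The member that lay elsewhere held 6789 UMIs, 5 of them of the rule genes, with 17.9% *Ins2* and 8.41% *Gcg*. Of the 35 barcodes of the cluster that were no members, 27 held 3 or more rule-gene UMIs and 6 were below the hormone limits. The 10 leading genes of the cluster were *Ly6c1*, *Col13a1*, *Col15a1*, *Cd300lg*, *Tmem204*, *Rasgrp3*, *S1pr1*, *Sox18*, *Plvap* and *Gpihbp1*, of which *Rasgrp3* and *S1pr1* are named only here. The clustering used the same counts as the rule and is no separate evidence.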

How the data were processed

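Single-cell RNA-seq counts of the wild-type library and of the mutant libraries taken 1 week and 5 weeks after *Taf4* inactivation were used. The deposited tables give unnormalized UMI counts for every gene in every barcode, which the authors made with bcl2fastq 2.17.1.14 and Cell Ranger 3.1 on mm10, and per the methods doublets were removed from the wild-type library only. No doublet caller was applied here. Depth was 316491 UMIs in the 229 endothelial barcodes, 289340 of them outside the 7 hormone genes *Ins1*, *Ins2*, *Gcg*, *Sst*, *Ppy*, *Pyy* and *Iapp*.

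The members and the 37 gene lists were chosen with earlier results of these data known. UMIs were summed over the members and over the remaining barcodes, and the log2 ratio of CPM without the hormone genes was given an exact conditional 95% interval. A gene at 0 was set to 3 UMIs for a bound. Genes named are the 7 rule genes, *Taf4* and the hormones, the 20 highest ratios with at least 50 UMIs in the members, the 15 genes with most UMIs (mitochondrial, ribosomal and hormone genes left out), the 10 lowest and up to 8 genes of each list by UMIs in the members, and list genes at 0. Clustering used Seurat 5.3.0 in R 4.3.3 (LogNormalize, 2000 variable genes, 12 principal components, resolution 0.8), and intervals came from Python 3.11.15 with scipy 1.17.1. Figures were drawn with matplotlib 3.10.9. The interval code was tested on simulated data. Coordinates and promoters are from RefSeq (GRCm38.p6), and no genome sequence of another build was used.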

Additional observations from a re-analysis of the deposited data

How the results depend on the processing

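The number of endothelial barcodes stayed within 1.5 times 229 under all 5 alternatives tried, from 2 or more to 5 or more rule-gene UMIs, stricter hormone limits, the limits of the study on detected genes and mitochondrial share, and without shared barcodes. In CPM of all UMIs 3718 genes were higher, 327 lower and 1 of the ER stress genes lower, and the log2 ratios of *Dnajb9*, *Dnajb1*, *Pkm* and *Papss2* turned to 0.0343, 0.11, 0.0706 and 0.0497. Beside these 4 genes, the ratios of 192 of 263 named genes left their interval there, and of 0 to 125 under the other alternatives. Thinned to 500 UMIs per barcode 873 genes were higher and 885 lower among 8468 tested, and at a log2 ratio of 2 the counts were 974 and 924, with 1 ER stress gene lower. *Egfl7* was found in 49.3% of members thinned to 300 UMIs. The rule genes summed over the libraries were at 7.70, 10.2 and 330 CPM without hormones (wild type, 1 week and 5 weeks), at 2.82, 6.70 and 131 CPM of all UMIs and, thinned to 500 UMIs, at 721 at 5 weeks, since thinning weights every barcode equally. Without members holding 10 or more haemoglobin or 3 or more MHC class II UMIs *Hbb-bs* was at -2.51. Alternatives that left out pericyte-bearing members, members outside the cluster, shared barcodes or haemoglobin-bearing members were chosen after seeing the data, and the first gave 1467 higher and 1654 lower genes. Counts of members in the cluster and of pan-endothelial genes did not move by over 1.5 times in any alternative run. The comparison of endothelial barcodes between libraries could not be run, because the other libraries held 0 and 2. No paired analysis was possible because each condition is 1 library without replicate numbers. Depth limits the scarce genes most: at a median of 1238 UMIs per barcode a gene seen in few members may be expressed in more.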
